A study of Drosophila melanogaster with 8 samples.

Results

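Female *fru*+ brain cells were compared with female *fru*- brain cells by RNA-seq, in 4 of the 8 libraries of the series. There were 2 libraries of each kind, chosen by the sex and *fru* status that their titles give and by no measured value. All flies were w1118 adults of 2 to 7 days with UAS-mCD8-GFP over MB247-Gal80 and a copy of Fru-GAL4, which the study's methods give as FruP1-GAL4 over a balancer. *fru*+ cells were sorted as GFP-positive, so they are cells in which the driver of the fruP1 promoter was active. *fru*- cells were the unlabelled cells, collected in matched number from the same female brains. MB247-Gal80 silences the reporter in γ Kenyon cells of the mushroom body, so these cells went to the *fru*- pool although they transcribe *fru*. Optic lobes were removed, dead cells were sorted out with DAPI, and each library pools the brains of many flies. Male *fru*+ and *fru*- cells of the same genotype and age make up the other 4 libraries. Replicate 1 of all 4 groups came from the same sorting session, called session 1 here, and replicate 2 from another, called session 2.

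*fruitless* encodes BTB zinc finger transcription factors. Its fruP1 transcripts are spliced by sex, so that males make FruM protein and females make none from them. Neurons that transcribe fruP1 form much of the courtship circuit in males, and their female counterparts include neurons of mating receptivity and egg laying. The comparison asks what sets the labelled cells apart from their neighbours in brains without FruM.

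Levels are given in TPM, a transcript abundance unit that is scaled to gene length and library size. Differences are on the scale log2(TPM + 1), which understates the change of genes at low levels. Each table lists 17137 reference genes, and the 10111 that reached 1 TPM in 2 or more of the 8 libraries were tested. The female *fru*+ libraries hold 3.37 and 3.76 Gb of aligned sequence and the female *fru*- libraries 3.21 and 3.16 Gb. The tables hold no read counts, and without counts the sampling error of a single value is unknown. The replicates are separately sorted pools from separate sessions. In each of the 4 libraries the pan-neuronal gene *elav* was listed between 91.5 and 156 TPM and *nSyb*, synaptobrevin of neurons, between 1466 and 2373 TPM. The neuroblast genes *dpn*, *ase* and *wor* stayed under 1 TPM in all 4, and *mira*, the other neuroblast gene listed, lay between 0.660 and 1.11 TPM. In bulk samples, more cells of a type and more RNA per cell cannot be told apart.

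*fru* itself stood at 71.6 and 61.0 TPM in replicates 1 and 2 of female *fru*+ cells, against 3.75 and 15.1 TPM in those of *fru*- cells. Both *fru*+ libraries lay above both *fru*- libraries, which differed from each other more than the *fru*+ libraries did. The gene spans 18414273 to 18545586 on the minus strand of 3R in dm6. The difference was 7.68-fold, a log2 fold change of 2.94 with a standard error of 0.46 (limma adjusted p = 0.0236). In session 1 the difference was 3.94 and in session 2 it was 1.95. Leaving out *fru*- replicate 1 gave 2.06 and leaving out *fru*- replicate 2 gave 3.82, in fits where the lone *fru*- library is assumed to vary like the other groups. With the session as a block the limma adjusted p was 0.0552, which no longer passed. Without *fru*+ replicate 1 or *fru*+ replicate 2 the estimates were 2.83 and 3.06, with limma adjusted p-values of 0.123 and 0.190.

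Of 8 genes of the sex hierarchy tested, *fru* was called higher and none lower, or 12.5% against 0.653% of all tested genes. The cells were sorted by the driver of *fru* itself, so nothing is read from this count. *tra*, whose product directs female splicing of *fru*, was listed at 82.7 and 74.0 TPM in *fru*+ cells and at 85.3 and 88.9 TPM in *fru*- cells. *dsx*, the other sex-specifically spliced target of *tra*, stayed between 0.255 and 0.599 TPM in the 4 female libraries. Neither difference passed the threshold, with limma adjusted p-values of 0.723 for *tra* and 0.873 for *dsx*.

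Across all genes, 66 of 10111 differed between female *fru*+ and *fru*- cells at a limma adjusted p under 0.05, which is 0.653% of those tested. In *fru*+ cells 30 were higher (0.297%) and 36 were lower (0.356%). Of the 30 higher genes, 8 encode neuropeptide precursors and 7 the enzymes and transporters of monoamine neurons. Those lower in *fru*+ cells included 3 other peptide precursors and the markers *nrv2* of glia and *ey* of Kenyon cells. Fold changes ran from 2.79 to 124 among the higher genes and from 1.91 to 70.2 among the lower ones. All 66 had the same sign in both sessions and *fru*+ libraries that did not overlap the *fru*- libraries, and nothing is read from this, since the same values made the call. At an unadjusted p under 0.05, 421 of the tested genes were higher (4.16%) and 1067 lower (10.6%). Without regard to calls, 14.1% of all tested genes had both *fru*+ libraries above both *fru*- libraries and 29.4% had both below. Over all tested genes the sign was shared by the sessions in 56.5%, and the 2 sessions' differences correlated with r = 0.27, across genes, which are not replicates. Of the 66, 21 overlap another tested gene, and unstranded reads from such pairs cannot be told apart.

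**Figure D1:**
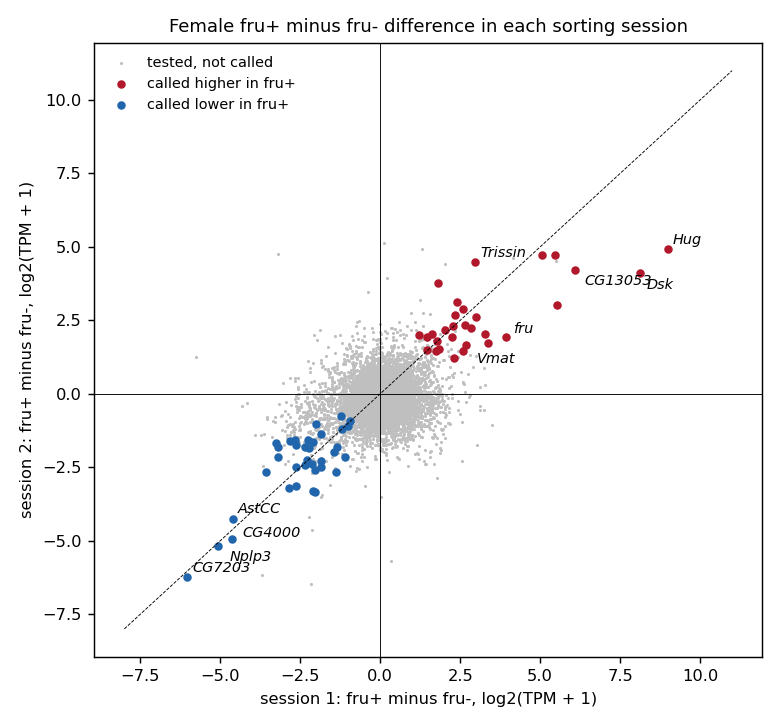
Difference between female *fru*+ and *fru*- cells in session 1 (x axis) and in session 2 (y axis), both as log2(TPM + 1), with a dot for each of the 10111 tested genes. The 30 red genes are higher and the 36 blue genes lower in *fru*+ cells in both sessions, on which their call was based; *Hug*, *Dsk* and *fru* lie below the dashed line of equal difference, with the larger difference in session 1.

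How many genes pass depends on the libraries and the fit. With the session as a block 34 genes passed, 21 higher and 13 lower, of which 31 were among the 66, and with only the 4 female libraries 3 passed, *NPF*, *CG4000* and *CG7203*. With the libraries scaled by the median of ratios, which moved the median difference of all genes from -0.11 to 0.01, 33 genes were higher and 18 lower. Without *fru*+ replicate 2 the count was 4, without *fru*+ replicate 1 it was 25, without *fru*- replicate 1 it was 34, and without *fru*- replicate 2 it was 236, 90 higher and 146 lower. Leaving out a male library, which lends only its spread, left 36 or 37.

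Neuropeptides are short signals cut from precursor proteins and released by neurons, often over long distances. Of 48 precursor genes listed, 42 were tested, and 8 were higher and 3 lower in female *fru*+ cells. Their median log2 fold change was 0.94, against -0.11 over all tested genes. The 8 were *Hug*, *Dsk*, *Ilp3*, *CCAP*, *Trissin*, *NPF*, *Capa* and *Proc*. In 20 of the 42 both *fru*+ libraries lay above both *fru*- libraries, and in 4 both lay below, against 14.1% and 29.4% of all tested genes. Of the 11 calls, 26.2% of the list against 0.653% of all tested genes, the fit without *fru*+ replicate 2 gave 1, that without *fru*+ replicate 1 gave 3, and that with only the 4 female libraries gave 1.

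*Hug*, whose hugin peptides act in feeding circuits, was listed at 1019 and 1843 TPM in *fru*+ replicates 1 and 2 and at 1.02 and 59.7 TPM in *fru*- replicates 1 and 2. The *fru*+ libraries were higher by far, and the *fru*- libraries stood far apart from each other. Its log2 fold change was 6.95 (standard error 1.14, limma adjusted p = 0.0293), and 8.98 and 4.92 in the 2 sessions. The gene lies at 12526188 to 12529076 on the plus strand of 3R, inside the span of *Octbeta3R* on the other strand, and the libraries were unstranded. *Octbeta3R* had a log2 fold change of -0.18.

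*Dsk* encodes the drosulfakinins, relatives of cholecystokinin that act in satiety and mating. It was listed at 512 and 780 TPM in *fru*+ cells and at 0.846 and 43.8 TPM in *fru*- cells, again with the low value in *fru*- replicate 1. In male *fru*- cells *Dsk* was listed at 2.00 and 0.396 TPM and *Hug* at 5.53 and 4.33 TPM. Both genes were there nearer to female *fru*- replicate 1 than to replicate 2. The log2 fold change of *Dsk* in females was 6.12 (standard error 1.10, limma adjusted p = 0.0444). With the session as a block, *Hug* and *Dsk* had limma adjusted p-values of 0.0552 and 0.0778 and no longer passed.

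*Ilp3*, an insulin-like peptide of the median neurosecretory cells, was listed at 88.6 and 222 TPM in *fru*+ cells and at 1.04 and 7.45 TPM in *fru*- cells. Its log2 fold change was 5.09 (limma adjusted p = 0.0232). The insulin-like peptide genes *Ilp2* and *Ilp5*, chosen after their values were seen, did not pass the threshold. *Ilp2* was listed at 13.5 and 176 TPM in *fru*+ cells against 2.59 and 7.36 TPM in *fru*- cells (limma adjusted p = 0.208). *Ilp5* stood at 39.1 and 225 TPM against 1.23 and 8.28 TPM (limma adjusted p = 0.0588). In all 3 genes, of the 4 female libraries, *fru*+ replicate 2 held the highest value and *fru*- replicate 1 the lowest.

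*CCAP*, the crustacean cardioactive peptide gene, was listed at 60.6 and 45.2 TPM in *fru*+ cells and at 0.348 and 4.65 TPM in *fru*- cells (log2 fold change 4.27, limma adjusted p = 0.00849). *Trissin*, a cysteine-rich peptide gene, was listed at 234 and 617 TPM in *fru*+ cells and at 29.1 and 26.9 TPM in *fru*- cells (log2 fold change 3.72, limma adjusted p = 0.00474). Unlike in *Hug* and *Dsk*, the 2 *fru*- libraries were close to each other in *Trissin*, and the *fru*+ libraries were apart. *NPF*, the relative of vertebrate neuropeptide Y, was close between replicates on both sides, at 195 and 207 TPM against 31.6 and 27.2 TPM (log2 fold change 2.73, limma adjusted p = 0.0252).

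The remaining 2 were high in both kinds of cell. *Proc*, which encodes proctolin, was listed at 618 and 640 TPM in *fru*+ cells and at 182 and 232 TPM in *fru*- cells, a log2 fold change of 1.61 (limma adjusted p = 0.00702). *Capa*, whose peptides act on the renal tubules, was listed at 535 and 571 TPM against 194 and 148 TPM, a log2 fold change of 1.70 (limma adjusted p = 0.0437, with the block 0.0778).

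**Figure D2:**
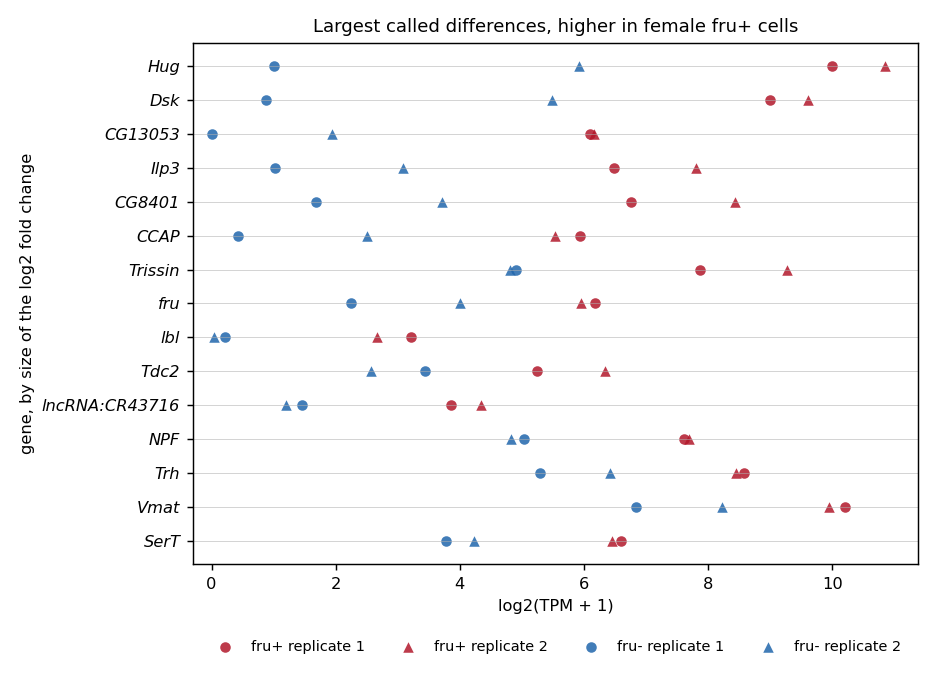
The 15 genes called higher in female *fru*+ cells with the largest log2 fold changes, each library as a symbol on the scale log2(TPM + 1). Red symbols (*fru*+) lie to the right of blue symbols (*fru*-) in every gene, and the blue circle of *fru*- replicate 1 lies far to the left of the blue triangle of replicate 2 in *Hug*, *Dsk*, *CCAP* and *fru* but not in *Trissin* or *NPF*.

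In the other direction, *Nplp3*, a neuropeptide-like precursor gene, was listed at 3.49 and 8.56 TPM in *fru*+ cells and at 149 and 347 TPM in *fru*- cells (log2 fold change -5.12, limma adjusted p = 0.00751). *AstCC*, allatostatin double C, was nearly absent from *fru*+ cells at 0.760 and 2.08 TPM and was listed at 42.0 and 57.5 TPM in *fru*- cells (log2 fold change -4.43, limma adjusted p = 0.00751). *Tk*, which encodes the tachykinins, was present in both at 110 and 80.0 TPM against 238 and 360 TPM (log2 fold change -1.63, limma adjusted p = 0.0123). *Lk*, the leucokinin gene, chosen after its values were seen, was listed at 20.4 and 22.7 TPM against 270 and 129 TPM and did not pass (limma adjusted p = 0.0595).

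In several peptide genes the libraries of the same *fru* status stood far apart. *natalisin*, a tachykinin relative, was listed at 0 and 0.161 TPM in *fru*+ and *fru*- replicate 1 and at 199 and 45.6 TPM in *fru*+ and *fru*- replicate 2. The male libraries split the same way, with 0 TPM in both libraries of session 1 and 21.6 and 25.1 TPM in those of session 2. *ITP*, the ion transport peptide gene, was listed at 2.57 and 0.452 TPM in the session 1 libraries of *fru*+ and *fru*- cells and at 914 and 28.9 TPM in those of session 2. The male values were 1.62 and 0.435 TPM in session 1 and 130 and 2.71 TPM in session 2. In both sexes *ITP* was thus higher in *fru*+ cells in each session. *SIFa* and *Orcokinin*, chosen after their values were seen, had single low libraries. *SIFa* was listed at 0.973 TPM in *fru*+ replicate 1 and between 91.0 and 219 TPM in the other 3 female libraries. *Orcokinin* was listed at 6.65 TPM in *fru*+ replicate 2 and between 216 and 398 TPM in the other 3. None of the 4 passed the threshold, with limma adjusted p-values from 0.538 to 0.893.

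Of 11 genes that process peptides none passed, where 0.653% of all tested genes did, and their median log2 fold change was 0.18. *amon*, the convertase that cuts precursors, was listed at 262 and 185 TPM in *fru*+ cells and at 159 and 205 TPM in *fru*- cells (limma adjusted p = 0.545). *dimm*, the transcription factor of peptidergic cells, was listed at 3.41 and 3.05 TPM against 0 and 2.51 TPM (limma adjusted p = 0.407). Both were chosen after their values were seen.

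Genes of monoamine neurons formed the other large group. Dopamine, serotonin, tyramine and octopamine are made from aromatic amino acids, packed into vesicles by a shared transporter and taken back by transporters at the membrane. Of 19 genes of transmitter synthesis and transport, 18 were tested, 7 were higher in female *fru*+ cells, or 38.9% against 0.297% of all tested genes, and none was lower. The count was 1 without *fru*+ replicate 2, 3 without *fru*+ replicate 1, 4 with the block and 0 with only the 4 female libraries. The 7 were *ple*, *DAT*, *Trh*, *SerT*, *Tdc2*, *Tbh* and *Vmat*, each a gene of monoamine neurons. The list as a whole had a median log2 fold change of 0.20. Both this list and that of the neuropeptides were chosen with earlier results of these data known.

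*Vmat*, the vesicular monoamine transporter shared by these neurons, was listed at 1187 and 990 TPM in *fru*+ cells and at 114 and 298 TPM in *fru*- cells. Both *fru*+ libraries were over 3 times the higher *fru*- library. Its log2 fold change was 2.55 with a standard error of 0.36 (limma adjusted p = 0.0131, with the block 0.0525).

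For serotonin, *Trh* is the neuronal tryptophan hydroxylase, placed at 1190384 to 1193173 on the minus strand of 3L, and is not the tracheal gene *trh*. It was listed at 383 and 349 TPM in *fru*+ cells and at 38.3 and 84.7 TPM in *fru*- cells (log2 fold change 2.66, standard error 0.30, limma adjusted p = 0.00751). *SerT*, the serotonin transporter, was listed at 96.0 and 86.1 TPM against 12.7 and 17.7 TPM (log2 fold change 2.52, standard error 0.25, limma adjusted p = 0.00474). Both were close between the *fru*+ replicates.

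For dopamine, *ple*, tyrosine hydroxylase, was listed at 489 and 334 TPM in *fru*+ cells and at 79.9 and 120 TPM in *fru*- cells (log2 fold change 2.03, limma adjusted p = 0.00751). *DAT*, the dopamine transporter, was listed at 282 and 274 TPM against 91.6 and 66.3 TPM (log2 fold change 1.82, limma adjusted p = 0.00751). Neither pair of replicates overlapped the other. *Pu*, which makes a cofactor of the hydroxylases and was chosen after its values were seen, was listed at 71.1 and 76.2 TPM against 43.9 and 44.1 TPM and did not pass (limma adjusted p = 0.103). *Ddc*, the decarboxylase of both pathways, chosen likewise, was near equal at 717 and 496 TPM against 630 and 615 TPM (limma adjusted p = 0.904).

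For tyramine and octopamine, *Tdc2*, tyrosine decarboxylase of neurons, was listed at 36.9 and 80.4 TPM in *fru*+ cells and at 9.85 and 4.94 TPM in *fru*- cells (log2 fold change 2.79, limma adjusted p = 0.0388, with the block 0.0810). *Tbh*, which turns tyramine into octopamine, was listed at 57.5 and 104 TPM against 24.2 and 25.3 TPM (log2 fold change 1.61, limma adjusted p = 0.0444, with the block 0.0525). In both genes *fru*+ replicate 2 was the highest library. The noncoding RNA *asRNA:CR44165*, next to *Tdc2* on 2R at 6682521 to 6683749 and overlapping *CG9422* on the other strand, was also higher, at 11.6 and 13.5 TPM against 1.49 and 1.25 TPM (limma adjusted p = 0.0151). Histidine decarboxylase, *Hdc*, reached 5.05 TPM in *fru*- replicate 2 and was under 1 TPM in the other 3 female libraries.

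The genes of fast transmission did not pass. *VGlut*, the vesicular glutamate transporter, was listed at 259 and 211 TPM in *fru*+ cells and at 233 and 242 TPM in *fru*- cells. *Gad1*, which makes GABA, was listed at 4075 and 2486 TPM against 2409 and 3291 TPM. *ChAT*, which makes acetylcholine, was listed at 344 and 231 TPM against 349 and 441 TPM. The limma adjusted p-values of these 3, chosen after their values were seen, ran from 0.327 to 0.961. Receptors for the monoamines did not pass in any of 16 genes tested, and their log2 fold changes lay between -0.40 and 0.38. With 0.653% of all tested genes called, the lack of a call in a list this short says little.

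Most of the other genes higher in female *fru*+ cells were in no gene list. *CG13053*, a gene of unknown function at 16259037 to 16259722 on 3L, was listed at 67.5 and 70.3 TPM in *fru*+ cells and at 0 and 2.85 TPM in *fru*- cells (log2 fold change 5.15, standard error 0.63, limma adjusted p = 0.00751). *CG8401*, at 16028603 to 16030091 on 2R, was listed at 107 and 345 TPM against 2.22 and 12.1 TPM (log2 fold change 4.90, limma adjusted p = 0.00849). *lbl*, the homeodomain gene *ladybird late*, was low in *fru*+ cells at 8.23 and 5.34 TPM and nearly absent from *fru*- cells at 0.157 and 0.0308 TPM (log2 fold change 2.81, limma adjusted p = 0.0123). It was the only gene called higher among the 90 tested of the transcription factor list.

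Among abundant genes, *lncRNA:CR44832*, a noncoding RNA on X, was listed at 5410 and 4127 TPM in *fru*+ cells and at 851 and 1318 TPM in *fru*- cells (log2 fold change 2.16, limma adjusted p = 0.0189, with the block 0.0554). *JhI-21*, an amino acid transporter, was listed at 163 and 195 TPM against 39.5 and 42.1 TPM (log2 fold change 2.1, limma adjusted p = 0.00207). Its adjusted p was the smallest among the higher genes. *mbl*, the RNA-binding splicing factor *muscleblind*, was listed at 344 and 236 TPM against 69.0 and 102 TPM (log2 fold change 1.75, limma adjusted p = 0.0202, with the block 0.0507). *Frq2*, a calcium sensor of synapses, was low at 11.6 and 12.2 TPM against 2.68 and 2.79 TPM (limma adjusted p = 0.0373, with the block 0.0554). These 4 were named after their values were seen. The remaining higher genes were *lncRNA:CR43716*, *CG14075*, *CG14331*, *Cpr49Ae*, *CG31345* and *CG10527*, with log2 fold changes from 1.48 to 2.77.

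The largest differences in the other direction were those of genes nearly absent from *fru*+ cells. *CG7203* was listed at 0.609 and 1.05 TPM in *fru*+ cells and at 104 and 154 TPM in *fru*- cells (log2 fold change -6.13, limma adjusted p = 0.0293, with the block 0.0614). *CG4000* was listed at 0.162 and 0 TPM against 28.1 and 29.9 TPM (log2 fold change -4.80, standard error 0.40, limma adjusted p = 0.00207). It had, with *JhI-21*, the smallest adjusted p of the comparison. *CG42235* was listed at 1.19 and 0.983 TPM against 24.9 and 11.7 TPM (log2 fold change -3.12, limma adjusted p = 0.0202, with the block 0.0554). *Cpr100A*, *Cpr97Eb* and *GstD8* were listed at 0 in both *fru*+ libraries, so no fold is given for them. Their *fru*- libraries lay between 3.08 and 9.07 TPM. In males *GstD8* stayed under 1 TPM, and *Cpr100A* and *Cpr97Eb* reached it only in *fru*- replicate 2, at 1.08 and 1.45 TPM. All 3 were thus tested only through their female *fru*- values, and nothing is read from their direction. Of these 3, *Cpr100A* stayed past the threshold with the block, and *Cpr97Eb* and *GstD8* did not (limma adjusted p = 0.0778 and 0.0710). *Vajk2*, also called lower, was listed at 0.0521 and 0 TPM in *fru*+ cells and at 3.60 and 4.26 TPM in *fru*- cells. It stayed under 1 TPM in every male library. *Vajk2* was thus likewise tested only through its female *fru*- values, and nothing is read from its direction.

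Among the lower genes were *GstD11*, *GstE1*, *Ugt35B1* and *Ugt35E2*, which encode conjugating enzymes and belong to no list. *GstD11*, a glutathione S-transferase, was listed at 3.81 and 2.03 TPM in *fru*+ cells and at 33.9 and 26.9 TPM in *fru*- cells (log2 fold change -3.03, limma adjusted p = 0.00475). *GstE1*, of the same superfamily, was listed at 3.84 and 3.14 TPM against 42.9 and 13.4 TPM (log2 fold change -2.49, limma adjusted p = 0.0493). The UDP-glycosyltransferase gene *Ugt35B1* was listed at 17.4 and 26 TPM against 177 and 85 TPM (log2 fold change -2.47, limma adjusted p = 0.0171). Its neighbour on 3R, *Ugt35E2*, was listed at 1.06 and 1.05 TPM against 17.9 and 8.15 TPM (log2 fold change -2.68, limma adjusted p = 0.0437). With the session as a block *GstD11* stayed past the threshold, and the other 3 did not, with limma adjusted p-values from 0.0552 to 0.0788.

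Other lower genes act in transport, lipid storage and signalling. *List*, a transporter of the SLC6 family, was listed at 5.57 and 3.87 TPM in *fru*+ cells and at 39.8 and 26.2 TPM in *fru*- cells (log2 fold change -2.56, limma adjusted p = 0.0258). *Lsd-2*, a coat protein of lipid droplets, was listed at 3.84 and 1.66 TPM against 18.8 and 15 TPM (log2 fold change -2.31, limma adjusted p = 0.0436). *ort*, a histamine-gated chloride channel, was listed at 0.318 and 1.23 TPM against 5.80 and 10.9 TPM (log2 fold change -2.39, limma adjusted p = 0.0457). All 3 lost the call with the block, with limma adjusted p-values from 0.0554 to 0.0778. *ort* was the only receptor gene called among the 27 transmitter receptor genes tested, or 3.70% against 0.653% of all tested genes. *Msr-110* and *snmRNA:357*, both lower, overlap on the same strand of 3L, so their values are not independent. With the block *snmRNA:357* stayed past the threshold and *Msr-110* did not (limma adjusted p = 0.0614).

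**Figure D3:**
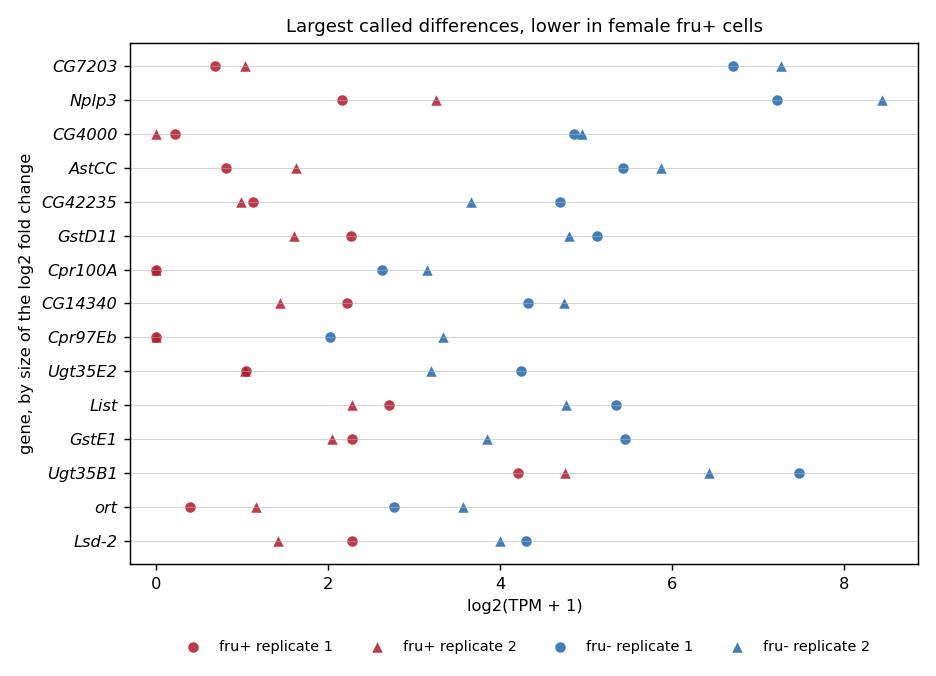
The 15 genes called lower in female *fru*+ cells with the largest log2 fold changes, each library as a symbol on the scale log2(TPM + 1). Red symbols (*fru*+) lie to the left of blue symbols (*fru*-) in every gene, and *Cpr100A* and *Cpr97Eb* are listed at 0 in both *fru*+ libraries.

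Glial markers mostly had lower levels in female *fru*+ cells, with 1 call. Of 16 tested, 15 had a negative log2 fold change, 10 had both *fru*+ libraries below both *fru*- libraries, and the median was -1.26. Of all 10111 tested genes, 6120 had a negative log2 fold change and 29.4% had both *fru*+ libraries below. The call was *nrv2*, a subunit of the sodium pump of glia, listed at 224 and 199 TPM in *fru*+ cells and at 802 and 519 TPM in *fru*- cells (log2 fold change -1.61, standard error 0.21, limma adjusted p = 0.0105). *repo*, the transcription factor that defines glia, was listed at 1.14 and 1.57 TPM against 8.24 and 2.25 TPM, and *alrm*, of astrocyte-like glia, at 15.4 and 17.7 TPM against 188 and 33.1 TPM. Neither passed, with limma adjusted p-values of 0.339 and 0.155. Summed over the list, the level was 990 and 670 TPM in *fru*+ replicates 1 and 2 and 2964 and 1213 TPM in *fru*- replicates 1 and 2. No marker of the list was at 0 in any of the 4 libraries. The labels describe the cells as central brain neurons, and glial genes were measured in both pools. The part of these markers in the other lower genes was not tested. Of the 5 gap junction genes tested, *ogre* and *Inx3* were lower in *fru*+ cells in both replicates without passing, with limma adjusted p-values of 0.177 and 0.233.

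Kenyon cell markers bear on the *fru*- pool, which received the γ Kenyon cells. Of 9 tested, 1 was called, or 11.1% against 0.653% of all tested genes, and the median log2 fold change was -0.45. It was negative in 8 of the 9, against 6120 of all 10111 tested genes. The median difference was -0.03 in session 1 and -0.88 in session 2. *ey*, a Pax6 transcription factor of Kenyon cells, was listed at 12.9 and 12.8 TPM in *fru*+ cells and at 30.8 and 31.0 TPM in *fru*- cells. The replicates nearly coincided, and the difference was -1.20 on the log2 scale with a standard error of 0.22 (limma adjusted p = 0.0457, with the block 0.0576). *prt*, a vesicular transporter of Kenyon cells chosen after its values were seen, was listed at 13.7 and 13.1 TPM against 45.3 and 29.2 TPM (limma adjusted p = 0.0595). *sNPF*, a peptide that Kenyon cells make in quantity, was near equal at 986 and 748 TPM against 942 and 824 TPM (limma adjusted p = 0.945).

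Markers of other tissues were low. Summed over 8 photoreceptor genes the level was 13.3 and 4.45 TPM in *fru*+ cells and 29.6 and 26.2 TPM in *fru*- cells. The rhodopsin gene *ninaE* was listed at 1.24 and 0 TPM against 9.40 and 17.1 TPM (limma adjusted p = 0.173). The sums over 6 fat body genes and 6 muscle genes were at most 19.6 and 13.1 TPM, both in *fru*- replicate 1. Of the hemocyte genes, *Pxn* and *crq* were measured at 14.8 to 40.7 TPM in the 4 libraries, and *Hml*, *NimC1* and *He* stayed at or under 1.11 TPM. None of these genes was called.

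In the transcription factor list, which also holds the RNA-binding protein gene *Imp*, 90 genes were tested. Of these *lbl* was higher and *ey* lower, or 2.22%, against 0.653% of all tested genes, and the median was -0.13. Of 39 peptide receptor genes none was called. *Lgr3*, a leucine-rich repeat receptor of the relaxin family, was listed at 9.92 and 8.94 TPM in *fru*+ cells and at 4.10 and 1.88 TPM in *fru*- cells. Its libraries did not overlap, and its log2 fold change of 1.44 (standard error 0.37) had a limma adjusted p of 0.118. Of 90 surface protein genes none was called. *tei*, an immunoglobulin superfamily gene listed as *CG17716*, was at 49.1 and 43.5 TPM in *fru*+ cells and 27.1 and 25.0 TPM in *fru*- cells (log2 fold change 0.81, limma adjusted p = 0.113). *robo1*, a receptor of midline guidance, lay between 3.0 and 3.43 TPM in all 4 libraries (log2 fold change -0.07, limma adjusted p = 0.945).

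The sign of the difference turned between the sessions in the lists of neuronal genes. Of 37 ion channel genes tested none was called, where 0.653% of all tested genes were. The ion channel genes had a median difference of 0.77 in session 1 and -0.45 in session 2. For the 10 neuron markers the medians were 1.16 and -0.24, for the 27 transmitter receptors 0.64 and -0.24, and for the 90 surface protein genes 0.42 and -0.25. Among them *para*, the neuronal sodium channel, was listed at 125 and 55.6 TPM in *fru*+ replicates 1 and 2 and at 18.6 and 67.0 TPM in *fru*- replicates 1 and 2. Its level was highest in *fru*+ replicate 1 and lowest in *fru*- replicate 1, and it had a limma adjusted p of 0.318. The median span was 23966 bases in the ion channel list, 41209.5 in the neuron markers, 14487 in the transmitter receptors and 37489.5 in the surface proteins, against 2477 over all tested genes, and gene span moved with the same libraries. In the fifth of genes with the longest span the median difference was 0.22 in session 1 and -0.27 in session 2, against -0.03 and 0.03 in the fifth with the shortest. The part of span in these differences was not tested.

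**Figure D4:**
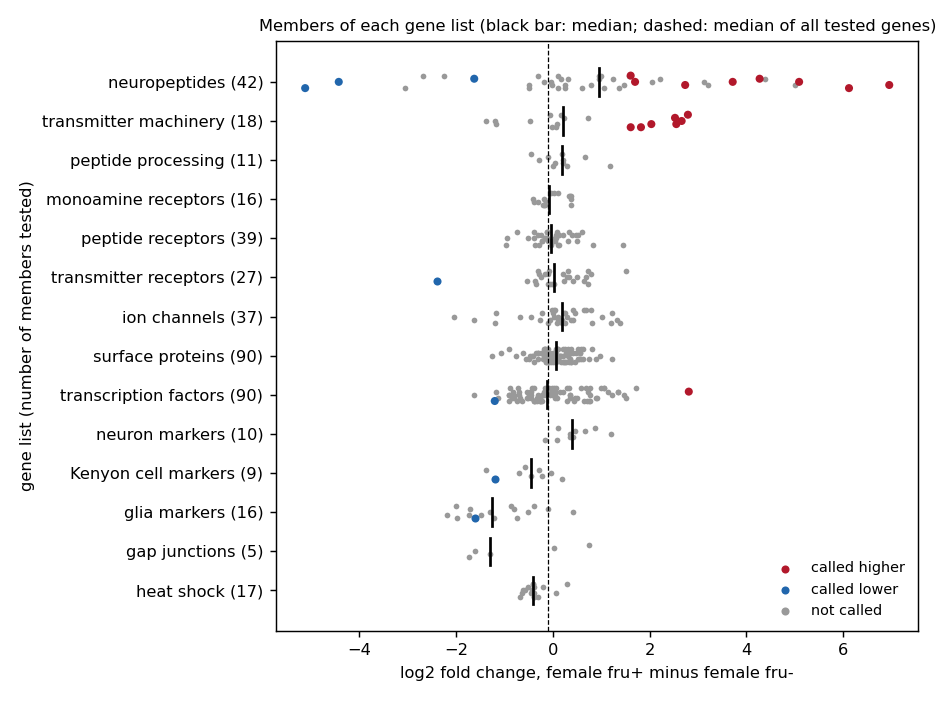
Log2 fold change between female *fru*+ and *fru*- cells of every tested member of 14 gene lists, with the number tested in brackets, red and blue dots for genes called higher and lower, and a black bar at each list's median. The neuropeptide genes spread from -5.12 to 6.95, 7 genes of transmitter machinery stand apart on the right, and the glia markers have a median of -1.26, to the left of the dashed line at -0.11, the median of all tested genes.

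All 17 heat shock genes were lower in *fru*- replicate 2 than in *fru*- replicate 1, and their summed level was 31726 and 17348 TPM in *fru*+ replicates 1 and 2 and 40128 and 23539 TPM in *fru*- replicates 1 and 2. None was called between *fru*+ and *fru*- cells, with a median log2 fold change of -0.40. Of 7 genes induced by neuronal activity none was called, and their summed level was 343 and 201 TPM in *fru*+ replicates 1 and 2 and 210 and 205 TPM in *fru*- replicates 1 and 2. *Hr38*, a nuclear receptor gene among them, was listed at 25.2 and 9.75 TPM in *fru*+ cells and at 22.4 and 8.91 TPM in *fru*- cells, so that it followed the session. Of the 9 clock genes tested none was called. Over all tested genes 0.653% were called, so the lack of calls in these short lists says little. *Pdf*, the peptide of the ventral clock neurons, was listed at 221 and 707 TPM in *fru*+ cells and at 3.96 and 29.5 TPM in *fru*- cells, without overlap (log2 fold change 5.01, limma adjusted p = 0.245). *Hr38* and *Pdf* were chosen after their values were seen.

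The spread between the 2 female *fru*- libraries depends on how it is measured. The median absolute log2 difference between replicates was 0.30 in female *fru*- cells and 0.34 in female *fru*+ cells, against 0.25 and 0.28 in male *fru*+ and *fru*- cells. Large differences were most numerous in female *fru*- cells. Across the tested genes the standard deviation of the log2 difference between replicates was 0.63 in female *fru*- cells, 0.60 in female *fru*+ cells, 0.51 in male *fru*+ cells and 0.49 in male *fru*- cells. More than a log2 unit apart were 1048 genes in female *fru*- cells (10.4%), against 844 in female *fru*+ cells (8.35%) and 604 in male *fru*- cells (5.97%). Of the 1048, 539 were higher in replicate 2, which is 5.33% of the tested genes, and 509 were higher in replicate 1, which is 5.03%. With 2 libraries, these differences are a description and carry no test.

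Of the 30 genes called higher in *fru*+ cells, 20 were higher in *fru*- replicate 2 than in replicate 1, or 66.7%, against 53.5% of all tested genes. The share was 73.3% in the transcription factor list, 74.4% in the surface protein list and 83.8% in the ion channel list. Taken as a share of the *fru*+ mean, *fru* stood at 5.65% in *fru*- replicate 1 and at 22.7% in replicate 2. *Hug* stood at 0.0710% and 4.18%, *Dsk* at 0.131% and 6.78%, and *CCAP* at 0.658% and 8.79%. For *Trh* the shares were 10.5% and 23.1%, and for *Vmat* 10.4% and 27.4%. Not every gene shared this direction. *Trissin* stood at 6.85% and 6.32%, *NPF* at 15.7% and 13.6%, and *Tdc2* at 16.8% and 8.42%. These *fru*- values also enter the call. The genes called between male *fru*+ and *fru*- cells were set beside them, although the fit shares its estimate of the spread between all 8 libraries. Of the 31 called higher in males, 19 were higher in female *fru*- replicate 2, or 61.3%. Of the 21 called lower in males, 4 were, or 19.0%.

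**Figure D5:**
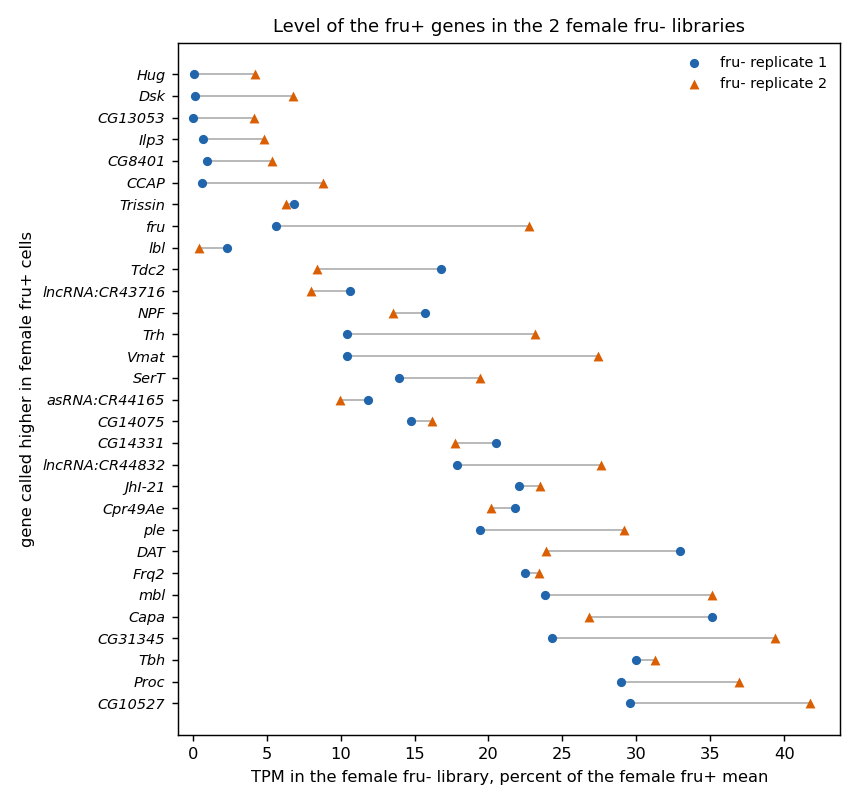
Level of each of the 30 genes called higher in female *fru*+ cells in *fru*- replicate 1 (blue circle) and *fru*- replicate 2 (orange triangle), as a percent of the mean of the 2 female *fru*+ libraries. *fru* runs from 5.65% to 22.7% and *Vmat* from 10.4% to 27.4%, while *Trissin*, *JhI-21* and *Frq2* nearly coincide and *Tdc2*, *DAT* and *Capa* are higher in replicate 1.

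The largest differences between the *fru*- libraries included those of *Hug* and *Dsk*. Among genes with a mean of at least 10 TPM in them, the 10 largest were those of *natalisin*, *Hug*, *Dsk*, *ITP*, *asRNA:CR45865*, *CG34234*, *mamo*, *MtnE*, *Imp* and *asRNA:CR43933*. In all but *MtnE*, replicate 2 was the higher. *mamo*, a zinc finger gene of neuron identity, was listed at 6.53 and 80.4 TPM in *fru*- replicates 1 and 2 and at 84.8 and 38.0 TPM in *fru*+ replicates 1 and 2. *Imp*, an RNA-binding protein, was at 7.37 and 77.3 TPM in *fru*- cells and at 78.8 and 52.1 TPM in *fru*+ cells. For both, *fru*- replicate 1 was low against all other libraries, the male ones included, which lay between 24.0 and 80.2 TPM. *MtnE*, a metallothionein, was at 29.3 TPM in *fru*- replicate 1 and at or under 2.29 TPM in the other 7 libraries. The antisense RNAs cannot be told apart from their partners in unstranded libraries.

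Glial and neuron markers also separated the *fru*- libraries. Of the 16 glial markers 2 were higher in *fru*- replicate 2, or 12.5% against 53.5% of all tested genes, and the others in replicate 1. Their median log2 difference, replicate 2 minus replicate 1, was -1.26, against 0.04 over all tested genes. *Gat*, a GABA transporter of glia, was listed at 180 TPM in replicate 1 and 28.4 TPM in replicate 2. Of the 10 neuron markers 9, or 90%, were higher in replicate 2, with a median of 0.75, such as *cac*, the presynaptic calcium channel, at 53.1 and 148 TPM. *Gat* and *cac* were chosen after their values were seen. The Kenyon cell markers did not as a list, with 5 of 9, or 55.6%, higher in replicate 2 and a median of 0.01. In replicates 1 and 2, *ey* was at 30.8 and 31.0 TPM and *Pka-C1* at 74.9 and 288 TPM. *sNPF* was at 942 and 824 TPM and *toy* at 271 and 237 TPM. Among the 36 genes called lower in *fru*+ cells, 13 were higher in *fru*- replicate 2, or 36.1% against 53.5% of all tested genes. The part of glial cells, of other cells and of gene span in these differences was not tested.

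All 66 genes had the same sign of difference between male *fru*+ and male *fru*- cells. That share was not computed for all tested genes, so nothing is read from it. Some of the male differences were small, such as -0.04 for *asRNA:CR45009* and -0.21 for *GstD8* on the log2 scale. Of the 30 higher in females, 23 were also called higher in males, which is 76.7% of the female list and 74.2% of the 31 called in males. Of the 36 lower in females, 11 were also called lower in males, which is 30.6% of the female list and 52.4% of the 21 called in males. In males 31 genes were called higher (0.307%) and 21 lower (0.208%) of those tested. The fit shares its estimate of the spread between all 8 libraries, so the female and male calls are not independent. Whether the female and male differences differ was tested as an interaction of sex and *fru* status. By limma no gene passed at an adjusted p under 0.05, and 237 (2.34%) had an unadjusted p under 0.05.

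Of the 66 genes, 16 had an unadjusted interaction p under 0.05, a count from which nothing is read. The female difference that made their call is also part of the interaction. The smallest p was that of *Trissin*, with 243 and 268 TPM in male *fru*+ libraries. It was listed at 0.455 and 0.244 TPM in male *fru*- cells against 29.1 and 26.9 TPM in female ones. Its female difference was smaller than the male one by 3.86 on the log2 scale (standard error 0.52, limma adjusted p = 0.266). It passed with a pseudocount of 0.1 (limma adjusted p = 0.0457) and without female *fru*+ replicate 2 (limma adjusted p = 0.00612). *CG13053* was high in female *fru*+ cells and was listed at 3.67 and 5.55 TPM in male *fru*+ cells. *Nplp3* and *CG7203* were listed at 42.9 and 24.5 TPM in male *fru*+ replicate 1 and at 12.0 and 0.372 TPM in replicate 2, where the female *fru*+ libraries held at most 8.56 and 1.05 TPM. The interaction estimates of these 3 genes were 3.38, -4.15 and -3.92, with limma adjusted p-values of at least 0.911. *Lgr3* had 2.40 and 2.25 TPM in the male *fru*+ libraries against 7.95 and 6.30 TPM in the male *fru*- ones, the reverse of its order in females, with an estimate of 2.72 (limma adjusted p = 0.911). *Cpr49Ae*, called higher in *fru*+ cells of both sexes, was listed at 106 and 98.7 TPM in male *fru*+ libraries. In the female *fru*+ libraries it was listed at 35.3 and 26.4 TPM, with an interaction estimate of -2.18 (limma adjusted p = 0.910). For *fru* the estimate was 0.16 (standard error 0.65).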

How the data were processed

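RNA was sequenced as unstranded, poly-A selected libraries with reads of 150 nt from both ends. After trimming, the authors mapped reads to dm6 (HISAT2), discarded those mapped ambiguously or in duplicate, and quantified every library with StringTie 2.1.1. The deposited tables give a TPM per gene, a signal that StringTie scales to gene length and library size. The FPKM and the coverage, the mean read depth per base, were made by the authors in the same step and served here only for the depth of each library, from their ratio. Read counts, which the authors made for DESeq2, were not used here.

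Reference genes were used, without the loci assembled from the reads. Rows of a gene were summed. log2(TPM + 1) was compared with limma 3.58.1 in R 4.3.3, with a mean for each of 4 groups of 2 libraries, a variance trend and Benjamini-Hochberg adjustment over the 10111 genes that reached 1 TPM in 2 or more of 8 libraries, at a threshold of 0.05. The fit was tested on simulated data. Tables were made with Python 3.11.15 and pandas 2.3.3.

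Replicate numbers mark sorting sessions, per the study's methods, and served as a block in an alternative fit. Replicate differences correlated across genes with r = 0.20 between female and male *fru*+ cells and -0.04 between female *fru*+ and *fru*- cells. Named genes were *fru*, the 15 largest called differences in each direction, called members of 22 gene lists, *Lgr3*, *robo1*, *tei*, *dsx*, the 3 most abundant members of each marker list and the 10 largest differences between the *fru*- libraries. The comparison and the lists were chosen with earlier results of these data known. Alternatives were other pseudocounts, filters, scaling and fits, and leaving out each library. Of the 66 called genes, 21 overlap another tested gene. Splicing of *fru* was not analysed here.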

Additional observations from a re-analysis of the deposited data

How the results depend on the processing

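The count of 66 genes between female *fru*+ and *fru*- cells was 45 with a pseudocount of 0.1 and 22 of them lower, 50 with a mean above 10 TPM, 51 with median-of-ratios scaling and 18 of them lower, and 32 with no variance trend and 12 of them lower. With no filter on low values limma called 0 genes, higher or lower, with 1808 of 14917 at an unadjusted p under 0.05. The replicate block gave 34 calls, 13 of them lower. The block ended that of *fru* and 16 of the 37 other calls among the genes named by rule, whose values stand beside them in the text. With only the 4 female libraries there were 3 calls, 1 higher and 2 lower. Leaving out a library gave 4 to 236 calls, 3 to 90 higher and 1 to 146 lower, with the lowest counts without *fru*+ replicate 2 and the highest without *fru*- replicate 2. Of those 236, 56 were among the 66. The cause was not tested.

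The log2 fold change of *fru* stayed at 2.94 but did not pass with no filter on low values (limma adjusted p = 0.185), the replicate block (0.0552), no variance trend (0.0804) or only the 4 female libraries (0.255), and lay between 2.06 and 3.82 with a library left out. Leaving out any 1 of the 4 male libraries also ended the call (0.0601 to 0.0664). For the interaction, a pseudocount of 0.1 gave 1 gene and leaving out a library 0 to 2, with *CG7203* and *asRNA:CR44134* without male *fru*+ replicate 2.

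No called gene named by rule changed direction under any alternative. Median-of-ratios scaling turned *robo1* to 0.033, *sNPF* to 0.092 and *mira* to 0.056. A library left out turned uncalled genes: *Syx1A* to between -0.55 and -0.18, *sNPF* to 0.059 and 0.16, *Pka-C1* to 0.26 and 0.68, *Gs2* to 0.10, *mira* to 0.011 and 0.17, *crq* to -0.40, *Act57B* to 0.12 and 0.56, *natalisin* to -2.88 and -1.72, *ITP* to -0.88, *CG34234* to 1.31, *mamo* to -0.49 and *Imp* to -0.27. Gene spans were added after the data were seen. The depth behind low values is unknown, which limits genes listed near 0.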
